A study of Mus musculus with 12 samples.

Results

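The interaction of genotype and diet in mouse muscle was measured as the diet effect in GPR120 knockout (KO) mice minus the diet effect in wild-type (WT) mice, for every annotated gene that passed a signal filter. All 12 arrays of the series entered, 3 mice in each of 4 groups, and 11345 genes were tested. The groups were WT mice on normal diet (WT ND), WT mice on high fat diet (WT HFD), GPR120 KO mice on normal diet (KO ND) and GPR120 KO mice on high fat diet (KO HFD). All 12 mice were 16 weeks old and came from a mixed 129/Sv and C57BL/6 background. Total RNA of muscle from each mouse was labelled with biotin and hybridised to its own Affymetrix array. The sources used here give neither the muscle taken, nor the sex of the mice, nor the length of feeding, nor how the knockout was made. The mouse numbers of each group form a block of their own, so cohort, litter and group cannot be told apart.

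GPR120 is encoded by Ffar4 and senses long-chain fatty acids at the cell surface. It signals through G proteins and beta-arrestins, is known for its action in adipose tissue, gut endocrine cells and macrophages, and dampens inflammatory signalling in the latter. A high fat diet raises the supply of fatty acids to muscle, which responds by raising genes of fatty acid burning, and obesity can bring macrophages and matrix into the tissue. The series title names the receptor together with diet-induced obesity, and the interaction asks which muscle transcripts answered the diet differently when the receptor was missing. An interaction above 0 means that the high fat diet raised a gene more, or lowered it less, in KO than in WT mice.

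The arrays were alike in scale, and skeletal muscle RNA dominated them: all 12 skeletal muscle fibre markers passed the filter, with mean log2 signals of 12.89 to 13.10 in the 4 groups. Ffar4 did not check the genotype labels, since its single probe set was below the filter, with group means of 0.23 to 2.48 that were higher in the KO groups. The log2 ratio of 3′ to 5′ control probes, a sign of RNA integrity, averaged −0.02 in WT ND, 0.18 in WT HFD, 0.07 in KO ND and 0.16 in KO HFD. With 3 arrays per group, their number limits the precision of each value. The p-values weigh each difference against the spread between mice of the same group. That spread is estimated in part from other genes of like signal.

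The diet response differed by genotype for few genes, and by large amounts for some of them. In limma, 16 of 11345 genes reached an adjusted p under 0.05 (0.141%), 9 with an interaction above 0 (0.0793%) and 7 below 0 (0.0617%). These 16 had absolute interactions of 0.70 to 4.71 on the log2 scale, with a median of 1.55, against a median of 0.23 over all genes. The highest were Hp and Ubd, acute phase and cytokine-induced genes, and the lowest was Mpp3. The interaction subtracts one difference from another, so its error was larger than that of a single diet effect: the median SE was 0.28, against 0.19 for the diet effect in WT. Its 95% confidence interval reached a median of 0.59 to either side. At an unadjusted p under 0.05 there were 1178 genes (10.4%), 626 higher and 552 lower. An absolute interaction over 1 was measured for 667 genes, and 10 of these passed. The largest adjusted p among the 16 was 0.0484, and the next gene lay just past 0.05. By the same threshold the diet effect called 6.06% of genes in WT and 4.54% in KO, and the genotype effect called 0.414% on normal diet and 0.732% on high fat diet.

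The number of calls moved with single mice and with the variance model. It was 1, Tmem87a, when the variance was not allowed to follow the signal level. Of the scalings, median centring left 7 calls, 6 higher and 1 lower, and of the probe set rules, testing every probe set left 6, with 5 higher and 1 lower. With a covariate for RNA integrity 15 passed, 10 higher and 5 lower, and 10 of the 15 were among the 16. Hp, Idh2, Vamp7, Me3, Mpp3 and A930005H10Rik lost the call there. The count was 31 without WT HFD mouse 2, 10 without WT ND mouse 3, 7 without KO ND mouse 3 and 6 without WT HFD mouse 1 or WT HFD mouse 3. It was 5 without KO ND mouse 2, KO HFD mouse 1 or KO HFD mouse 3, and 4 without WT ND mouse 2 or KO ND mouse 1. Tmem87a, Ctss, Capn3 and Hspb7 passed in all 12 fits that left out 1 mouse, with a largest adjusted p of 0.0451 among them. The other 12 genes lost the call in 5 to 12 of these fits. No interaction of the 16 genes changed sign in any of 349 combinations of gene and alternative. Other signal filters, the test of every probe set and the fit whose variance did not follow the signal level left the interaction values unchanged. A change of sign was not possible there. When every probe set was tested, only the probe set used for the 16 calls was counted for each gene.

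**Figure D1:**
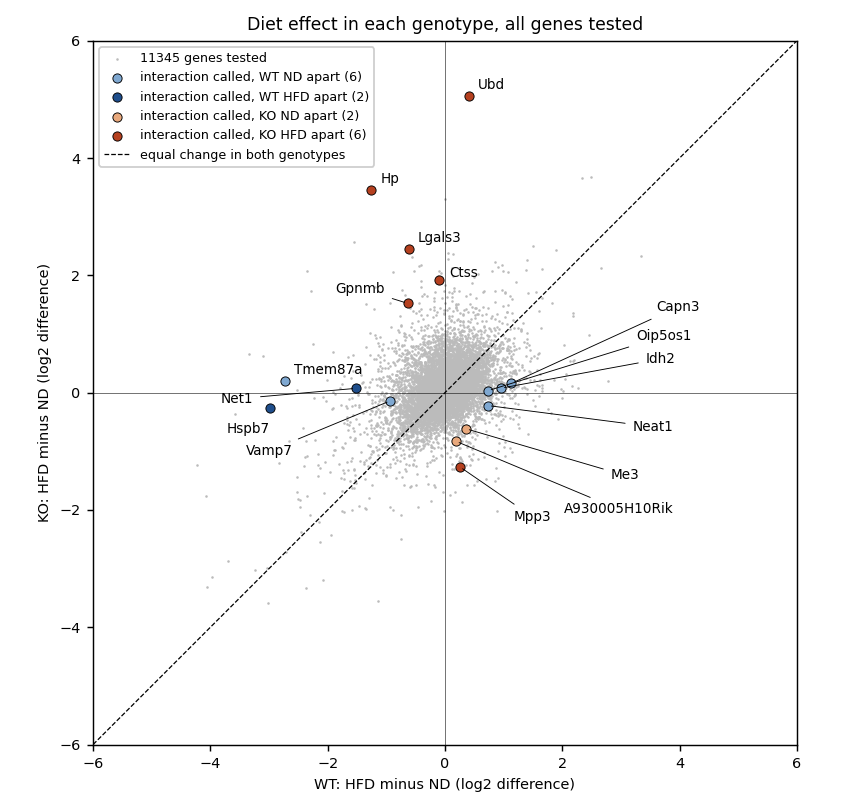
Diet effect (high fat minus normal diet, log2) of each tested gene in WT mice on the horizontal axis and in KO mice on the vertical axis. Grey points are the 11345 genes tested, coloured points the 16 with an interaction past an adjusted p of 0.05, coloured by the group that stood apart, and the dashed line marks equal change; Hp, Ubd, Lgals3, Ctss and Gpnmb lie above it, and Tmem87a and Hspb7 lie to its left near 0 on the KO axis.

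In each of the 16 genes 1 group stood apart, meaning that its 3 values all lay above or all lay below the other 9. Over all genes tested 15.1% had such a group. The classes use the same values as the interaction and describe it; they are no further test of it. KO HFD stood apart in 6 genes (5.31% of all genes), above the other mice in 5 (3.94%) and below in 1 (1.37%). WT ND stood apart in 6 (4.68%), above in 2 (1.69%) and below in 4 (2.99%). WT HFD stood apart below the others in 2 (3.38% apart, 1.2% below), and KO ND above the others in 2 (1.75% apart, 0.802% above and 0.952% below).

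The genes that stood apart in KO HFD mice were, with 1 exception, higher there: Ctss, Lgals3, Gpnmb, Hp and Ubd. Ctss encodes cathepsin S, a lysosomal protease that trims antigens and the invariant chain in antigen-presenting cells. Its log2 signal was 9.95, 9.29 and 9.31 in KO HFD, 7.82, 7.38 and 7.61 in KO ND, 8.37, 8.40 and 8.56 in WT ND, and 8.25, 8.49 and 8.26 in WT HFD. All 3 KO HFD mice lay above the other 9, and the KO ND mice lay below the remaining 6. The diet effect was 1.92 in KO (SE 0.17, adjusted p = 0.000192) and −0.11 in WT (adjusted p = 0.762), an interaction of 2.03 (SE 0.24, adjusted p = 0.00602). Lgals3 encodes galectin-3, a sugar-binding lectin abundant in activated macrophages. It read 10.67, 9.45 and 9.86 in KO HFD and 7.32, 7.52 and 7.80 in KO ND. The WT ND mice read 8.42, 8.37 and 8.19, and the WT HFD mice 7.21, 8.47 and 7.46. The KO HFD mice were again highest, and WT HFD mouse 2 was a full unit above its 2 group mates. The interaction of Lgals3 was 3.06 (SE 0.44, adjusted p = 0.0179). Gpnmb, a transmembrane glycoprotein of lysosome-rich macrophages, read 7.07 to 7.78 in KO HFD and 5.58 to 6.69 in the other 9 mice. Its interaction was 2.15 (SE 0.31, adjusted p = 0.0179).

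Hp and Ubd had the largest interactions and the noisiest values. Hp encodes haptoglobin, the acute phase protein that binds free haemoglobin. It read 11.19, 10.33 and 10.96 in KO HFD and 7.07, 6.84 and 8.22 in KO ND. The WT ND mice read 6.73, 7.43 and 8.39, and the WT HFD mice 5.39, 7.65 and 5.73. The KO HFD mice stood 1.94 above the next mouse, while the other 9 ranged from 5.39 to 8.39. The interaction was 4.71 (SE 0.77, 95% confidence interval 3.04 to 6.37, adjusted p = 0.0362), a 26.1-fold ratio between the diet effects. Ubd encodes FAT10, a ubiquitin-like modifier that interferon gamma and tumour necrosis factor induce. It read 8.31, 7.64 and 7.69 in KO HFD and between 1.51 and 4.08 in the other 9 mice, and passed the filter through the KO HFD group alone. The means of the other 3 groups, 2.82 to 3.28, lay below the filter of 3.78, and the interaction of Ubd, 4.64 (SE 0.82, adjusted p = 0.0484), rests on these dim signals. Hp lost its call in 8 of the 12 fits without 1 mouse and Ubd in 10, with adjusted p up to 0.123 without KO ND mouse 1 and 0.173 without KO HFD mouse 1.

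Mpp3, a membrane scaffold of the guanylate kinase family, was the one gene that was lowest in KO HFD mice. It read 6.36, 5.82 and 6.14 there, against 7.39, 7.10 and 7.62 in KO ND. The WT ND mice read 7.08, 6.67 and 6.68, and the WT HFD mice 7.11, 7.12 and 6.95. Both WT groups lay above KO HFD, and the WT HFD range met the lower end of KO ND. The interaction was −1.51 (SE 0.26, adjusted p = 0.0390), and the call held in 1 of the 12 fits without 1 mouse, with adjusted p up to 0.127 without KO ND mouse 1.

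**Figure D2:**
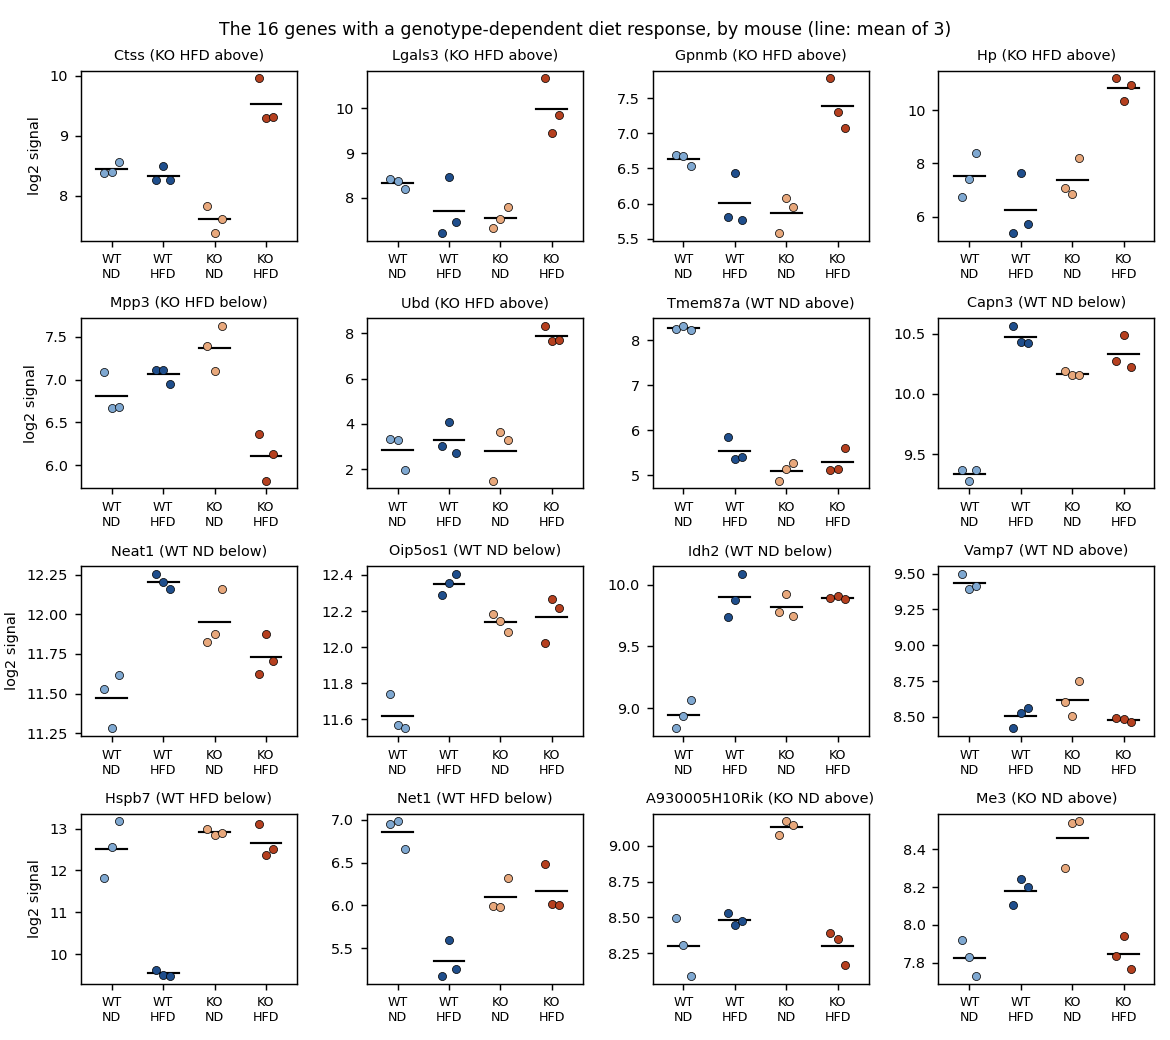
Log2 signal of each of the 16 genes in each of the 12 mice, 1 panel per gene, with the 4 groups on the horizontal axis and a line at the mean of 3 mice. Each title names the group that stood apart: in the Hspb7 panel the 3 WT HFD mice lie at 9.48 to 9.63 and the other 9 at 11.83 to 13.17, and in the Ctss panel the 3 KO HFD mice lie at 9.29 to 9.95.

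The promoters of Ctss and Lgals3 are shown because both genes were highest in KO HFD mice and their stretches held the letters of motifs of interferon and inflammatory factors. Of the 16 genes 12 had an entry in the RefSeq promoter table of build GRCm38.p6. Both stretches are the 250 bases before the start of the gene, on the + strand, at chr3:95526536-95526785 for Ctss and chr14:47373610-47373859 for Lgals3. Capitals mark motif matches on either strand.
Ctss: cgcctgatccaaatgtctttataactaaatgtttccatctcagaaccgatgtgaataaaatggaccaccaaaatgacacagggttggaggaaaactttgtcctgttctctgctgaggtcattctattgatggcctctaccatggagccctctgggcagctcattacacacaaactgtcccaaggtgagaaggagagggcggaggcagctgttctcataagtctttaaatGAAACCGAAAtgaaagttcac
Lgals3: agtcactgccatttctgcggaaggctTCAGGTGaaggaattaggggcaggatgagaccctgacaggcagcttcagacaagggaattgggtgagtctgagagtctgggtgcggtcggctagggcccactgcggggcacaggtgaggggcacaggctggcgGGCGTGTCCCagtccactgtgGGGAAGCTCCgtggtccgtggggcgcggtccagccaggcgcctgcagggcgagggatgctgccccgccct
The capitals in Ctss match GAAA, any 2 bases and GAAA, the core of an interferon response element, and begin 21 bases before the start. This motif was found in 2.98% of 32841 promoters. In Lgals3 the capitals are, in order, 1 match of TCANGTG, a form of the E-box (12.2% of promoters), and 2 matches of GGGA, any 4 bases and CC, a loose form of the NF-kB site (17.6%). These begin 224, 91 and 70 bases before the start, and no matches overlapped. The STAT motif TTCNNNGAA (7.02%) had no match in either stretch. The stretches of Gpnmb and Ubd held no match of these 4 letter patterns. Other forms of the same sites were not searched, so a site of another spelling may be present in any of the stretches. A match describes letters in the window and was not tested as a binding site.

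In WT ND mice 6 genes stood apart. Tmem87a, a transmembrane protein of the Golgi, gave the smallest p of all genes. It read 8.25, 8.31 and 8.21 in WT ND, 5.86, 5.36 and 5.39 in WT HFD, 4.88, 5.13 and 5.28 in KO ND, and 5.12, 5.14 and 5.61 in KO HFD. The 3 WT ND mice lay 2.36 above the next mouse, and the KO HFD range overlapped those of WT HFD and KO ND. The diet effect was −2.72 in WT (SE 0.20, adjusted p = 2.23e-05) and 0.19 in KO (adjusted p = 0.632), and the genotype effect on normal diet was −3.16 (adjusted p = 4.03e-06). The interaction was 2.92 (SE 0.28, 95% confidence interval 2.32 to 3.51, adjusted p = 0.000836). Capn3 encodes calpain 3, a muscle protease that binds titin and is mutated in a limb-girdle muscular dystrophy. It had the opposite shape, at 9.37, 9.28 and 9.37 in WT ND and 10.15 to 10.56 in the other 9 mice. Its interaction was −0.97 (SE 0.12, adjusted p = 0.00912), with a diet effect of 1.13 in WT (adjusted p = 2.45e-05) and 0.16 in KO (adjusted p = 0.343).

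Of the other genes set apart in WT ND mice, 3 were lower there and 1 was higher. Idh2, the mitochondrial isocitrate dehydrogenase that makes NADPH, read 8.84, 8.94 and 9.06 in WT ND and 9.74 to 10.09 in the other 9 mice. Its interaction was −0.88 (SE 0.15, adjusted p = 0.0365). Oip5os1, a long noncoding RNA also called Cyrano, read 11.55 to 11.74 in WT ND and 12.02 to 12.41 in the others, with an interaction of −0.70 (adjusted p = 0.0362). Neat1 is the noncoding RNA that builds nuclear paraspeckles. It read 11.28 to 11.61 in WT ND and 11.62 to 12.26 in the others, so its groups were separated by only 0.01. The diet effect on Neat1 was 0.73 in WT (adjusted p = 0.00238) and −0.22 in KO (adjusted p = 0.277), and the interaction was −0.95 (SE 0.15, adjusted p = 0.0362). The genotype effect on Neat1 was 0.48 on normal diet and −0.47 on high fat diet (adjusted p = 0.0778 and 0.0593). Vamp7, a membrane fusion protein of late endosomes and lysosomes, was higher in WT ND, at 9.40 to 9.50 against 8.42 to 8.75 in the others, with an interaction of 0.79 (SE 0.14, adjusted p = 0.0390). These calls were often lost when a mouse was left out. Vamp7 passed in 0 of 12 such fits, with adjusted p of 0.0502 to 0.127, Idh2 and Oip5os1 in 3 and Neat1 in 4, with adjusted p up to 0.123 without KO ND mouse 1 for Oip5os1.

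Other probe sets of the same genes bore on some of these values. The second Vamp7 probe set read 7.26 to 7.44 in WT ND and 5.84 to 6.31 in the other mice, an interaction of 1.42. The second Capn3 probe set gave −0.35, the same sign at a smaller size, and its WT ND mean of 9.34 was level with the KO ND mean of 9.34. For Neat1 the second probe set, at a mean of 5.76, gave 0.45, the opposite sign. The second Idh2 probe set gave −0.13, with means of 4.91 in WT ND, 5.44 in WT HFD, 4.89 in KO ND and 5.28 in KO HFD. The other Oip5os1 probe sets gave −0.11 and −0.40, the same sign at a smaller size. Tmem87a was measured by 1 probe set, as were Ctss, Lgals3, Me3, Hp, Net1 and Ubd.

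Tmem87a and Capn3 are neighbours on chromosome 2, with starts 0.108 Mb apart in GRCm38.p6, and moved in opposite directions. Of 14 tested genes within 0.5 Mb of Tmem87a, Capn3 was the only one past the threshold (0.141% over all genes), and the 14 interactions ranged from −0.97 to 0.59. Vps39, a subunit of a lysosomal tethering complex, lies within the window and stood at 0.59 (adjusted p = 0.475). Ganc, a glucosidase gene that starts between the pair, stood at −0.75 (adjusted p = 0.502). Both were chosen after their values were seen. Oip5os1 starts 0.761 Mb from Tmem87a, a closeness that was noticed after the values were seen. Around Ctss 0 of 35 tested neighbours passed, with interactions of −0.40 to 1.23, and around Hspb7 0 of 15 passed, with −0.49 to 1.64. Of these 35 and 15 neighbours, 3 and 1 had an unadjusted limma p under 0.05, as did 2 of the 14 around Tmem87a (10.4% of all genes). The 1.64 belongs to Efhd2, a calcium-binding protein, with an adjusted p of 0.284 for the interaction. Efhd2 did pass for the genotype effect on high fat diet, with means of 7.44 in WT HFD and 9.23 in KO HFD.

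**Figure D3:**
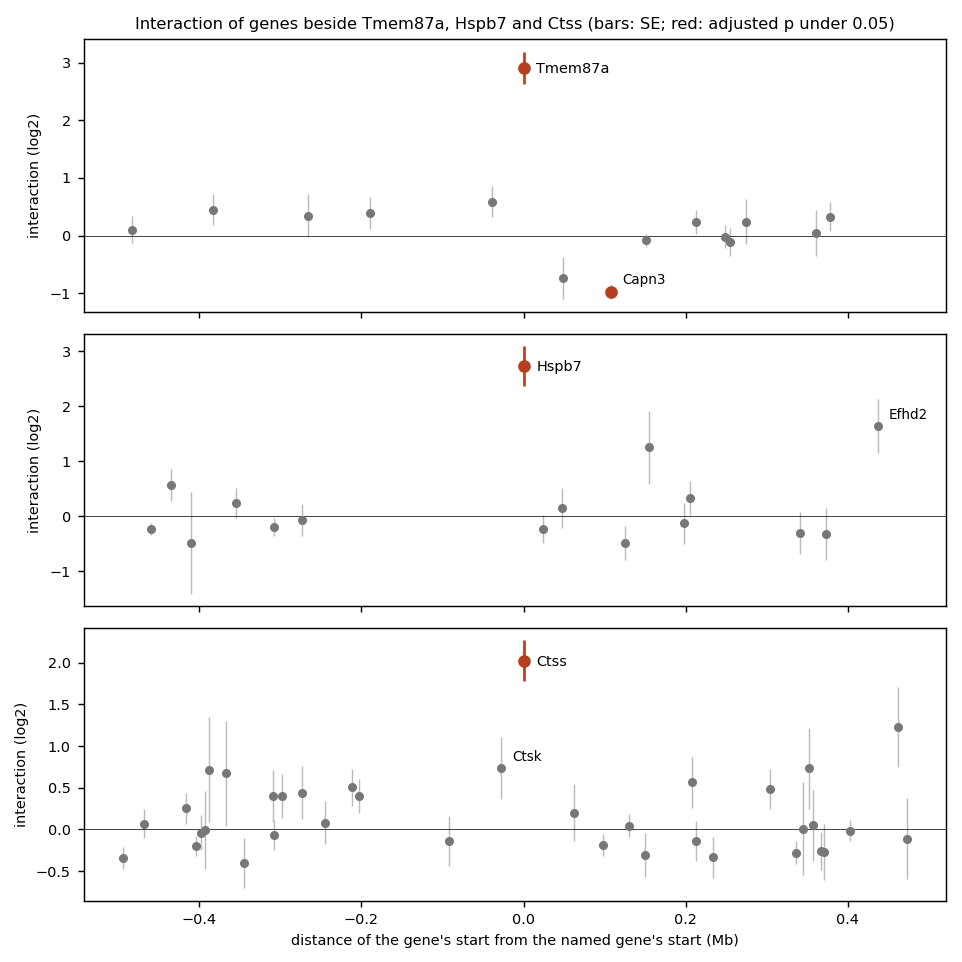
Interaction of tested genes around Tmem87a, Hspb7 and Ctss against the distance between gene starts in Mb, with bars of 1 SE and red points past an adjusted p of 0.05. Capn3 at −0.97 is the one red neighbour; the 35 neighbours of Ctss lie between −0.40 and 1.23.

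In WT HFD mice 2 genes stood apart, both lower there. Hspb7 encodes a small heat shock protein of heart and skeletal muscle that holds contractile filament proteins in shape. It read 9.63, 9.51 and 9.48 in WT HFD, 11.83, 12.56 and 13.17 in WT ND, 13.00, 12.85 and 12.91 in KO ND, and 13.11, 12.37 and 12.50 in KO HFD. The WT HFD mice lay 2.20 below the next mouse, and the other 3 groups overlapped. The diet effect was −2.98 in WT (SE 0.26, adjusted p = 5.84e-05) and −0.26 in KO (adjusted p = 0.628), an interaction of 2.73 (SE 0.36, 95% confidence interval 1.95 to 3.51, adjusted p = 0.00972). The other 2 Hspb7 probe sets gave 1.37 and 0.81. Net1, an exchange factor that activates the GTPase RhoA, read 5.18, 5.60 and 5.26 in WT HFD and 6.95, 6.98 and 6.65 in WT ND. The KO ND mice read 5.98 to 6.32 and the KO HFD mice 6.01 to 6.48, between both WT groups. Its interaction was 1.59 (SE 0.27, adjusted p = 0.0390) and held in 1 of the 12 fits without 1 mouse, with adjusted p up to 0.127 without KO ND mouse 1.

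Of 7 tested small heat shock proteins 1 passed, Hspb7 (0.141% of all genes). All 7 had an interaction above 0 (51.3% of all genes), with a median of 0.45 against 0.01 over all genes. The median was 0.22 without KO HFD mouse 1 and 0.70 without KO HFD mouse 2. Cryab, the alphaB-crystallin chaperone, averaged 13.60 in WT ND, 13.15 in WT HFD, 13.62 in KO ND and 13.63 in KO HFD, an interaction of 0.45 (adjusted p = 0.287). Hspb1 stood at 0.55 (SE 0.33, adjusted p = 0.586). Cryab was chosen after its values were seen. Averaged over the 7 genes, each centred on its own mean, the 3 WT HFD mice lay at −0.79 to −0.60 and the 3 KO HFD mice at −0.25 to 0.60. This average includes Hspb7, whose own interaction of 2.73 was far above the list median and weighs heavily in it.

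In KO ND mice 2 genes stood apart, both higher there. Me3 encodes a mitochondrial malic enzyme that makes NADPH from malate. It read 8.30, 8.54 and 8.55 in KO ND, 7.84, 7.94 and 7.76 in KO HFD, 7.92, 7.83 and 7.73 in WT ND, and 8.10, 8.24 and 8.20 in WT HFD. The WT HFD mice were the next highest, 0.06 below the lowest KO ND mouse. The diet effect was −0.62 in KO (adjusted p = 0.00877) and 0.36 in WT (adjusted p = 0.0759), an interaction of −0.97 (SE 0.16, adjusted p = 0.0362). A930005H10Rik, a transcript named for a RIKEN clone, read 9.07 to 9.17 in KO ND and 8.09 to 8.53 in the other 9 mice. Its interaction was −1.01 (SE 0.16, adjusted p = 0.0362), and all 4 of its probe sets had the same sign. Each of these 2 genes passed in 3 of the 12 fits without 1 mouse, with adjusted p up to 0.118 without WT ND mouse 2.

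The lists of inflammation and matrix had interactions above 0, with few members past the threshold. Of 13 tested macrophage markers 1 passed, Lgals3, and 12 did not. All 13 had an interaction above 0, with a median of 1.02 (0.84 to 1.24 when 1 mouse was left out), against 0.01 and 51.3% above 0 over all genes. At an unadjusted p under 0.05 the count was 9 of 13, all higher (5.52% of all genes). Cd68, a lysosomal membrane protein of macrophages, averaged 7.73 in WT ND, 6.54 in WT HFD, 7.65 in KO ND and 8.64 in KO HFD, an interaction of 2.18 (SE 0.56, adjusted p = 0.203). Tyrobp, an adaptor of myeloid receptors that was chosen after its values were seen, read 7.80 to 8.53 in KO HFD and 6.40 to 7.49 in the other mice. Its interaction was 1.60 (SE 0.30, adjusted p = 0.0592). In bulk RNA, fewer cells of a type and less RNA per cell cannot be told apart.

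Levels of the macrophage markers, a list that holds Lgals3, are given beside Ctss, Lgals3 and Gpnmb, and their part in those results was not tested. Summed on the linear scale, the 13 markers came to 5088 to 8823 in KO HFD, 3025 to 4075 in KO ND, 4406 to 4876 in WT ND and 2652 to 5467 in WT HFD. The highest WT HFD value, from mouse 2, overlapped the KO HFD range. As a mean of centred log2 values, the macrophage list stood at 0.28 in WT HFD mouse 2 and at −0.61 and −0.32 in its group mates. In the extracellular matrix list the same mouse stood at 0.01, against −0.72 and −0.67, and in the adipocyte list at 0.45, against −0.50 and −0.47. No macrophage marker was at 0, and Adgre1, which encodes the macrophage surface protein F4/80, averaged 6.45 to 7.55 in the 4 groups. Adgre1 was chosen after its values were seen. Of 11 lymphocyte and granulocyte markers on the array, 3 passed the filter.

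The acute phase and cytokine-induced list held the highest median interaction. Of its 14 tested members 2 passed, Hp and Ubd, both higher, and 12 did not. Ubd entered the test through the KO HFD group where it is high, so its call adds no support for the list. With Hp and Ubd counted, the median of the list was 1.73, and 13 of 14 members were above 0. The median was 0.56 under a stricter signal filter, which tested fewer members and left Ubd out. Saa3, an acute phase apolipoprotein made in fat and macrophages, averaged 4.31 in WT ND, 4.30 in WT HFD, 3.15 in KO ND and 6.46 in KO HFD, an interaction of 3.32 (SE 0.71, adjusted p = 0.105). Lcn2, an iron-siderophore binding protein, gave a like interaction of 3.20 (SE 1.03, adjusted p = 0.300) from other groups. It averaged 6.82 in WT ND, 3.24 in WT HFD, 5.90 in KO ND and 5.53 in KO HFD, so the WT HFD mice were the low ones. The KO ND mean of Saa3 and the WT HFD mean of Lcn2 were below the filter of 3.78, so the sizes of both interactions rest on dim signals. Both were chosen after their values were seen. Saa3 was thus highest in KO HFD and Lcn2 lowest in WT HFD.

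Extracellular matrix genes had interactions above 0 without any member passing. All 26 tested members were above 0 (25 under median centring), with a median of 0.61 (0.42 to 0.85 when 1 mouse was left out), and 0 passed in limma, with 7 higher at an unadjusted p under 0.05. In 12 of 26 the KO HFD mice lay above all others (3.94% of all genes). For the diet effect within KO 8 members rose (2.66% of all genes), and within WT 2 fell (2.99%). Postn, the matricellular protein periostin, read 9.51, 8.20 and 8.86 in KO HFD and 6.08 to 7.55 in the other 9 mice, an interaction of 1.89 (SE 0.55, adjusted p = 0.263). Lox, which crosslinks collagen, reached 1.36 (SE 0.48, adjusted p = 0.361) in another way: its diet effect was −1.58 in WT (adjusted p = 0.0185) and −0.22 in KO (adjusted p = 0.772). The 10 fibroblast markers, of which 6 are shared with this list, had a median of 0.54 with 9 above 0 and 0 past the threshold. At an unadjusted p under 0.05, 4 were higher (5.52% of all genes).

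Interferon response and antigen presentation genes had a median interaction of 0.48, with 21 of 23 above 0. None passed in limma, and 8 were higher at an unadjusted p under 0.05 (5.52% of all genes). Within KO mice 6 of 23 rose with the diet, and within WT mice 0 did (limma adjusted p; 2.66% and 3.07% of all genes). Oas1a, an interferon-induced antiviral enzyme, averaged 5.25 in WT ND, 5.74 in WT HFD, 3.91 in KO ND and 5.89 in KO HFD, an interaction of 1.49 (SE 0.82, adjusted p = 0.551). Ifit3, another interferon-induced gene, stood at 1.32 (SE 0.58, adjusted p = 0.454). Adipocyte markers had a median of 0.39 (0.62 without WT HFD mouse 2) with 9 of 10 above 0, led by the lipid droplet protein Cidec at 2.35 (SE 0.87, adjusted p = 0.372) and the hormone resistin, Retn, at 1.71 (SE 0.51, adjusted p = 0.277). None of the 10 passed, and 2 were higher at an unadjusted p under 0.05 (5.52% of all genes). Their linear sum was 39568 to 39806 in KO HFD and 28336 to 34367 in KO ND, and 29832 to 31518 in WT ND and 31201 to 40643 in WT HFD. The WT HFD range thus spanned that of KO HFD.

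**Figure D4:**
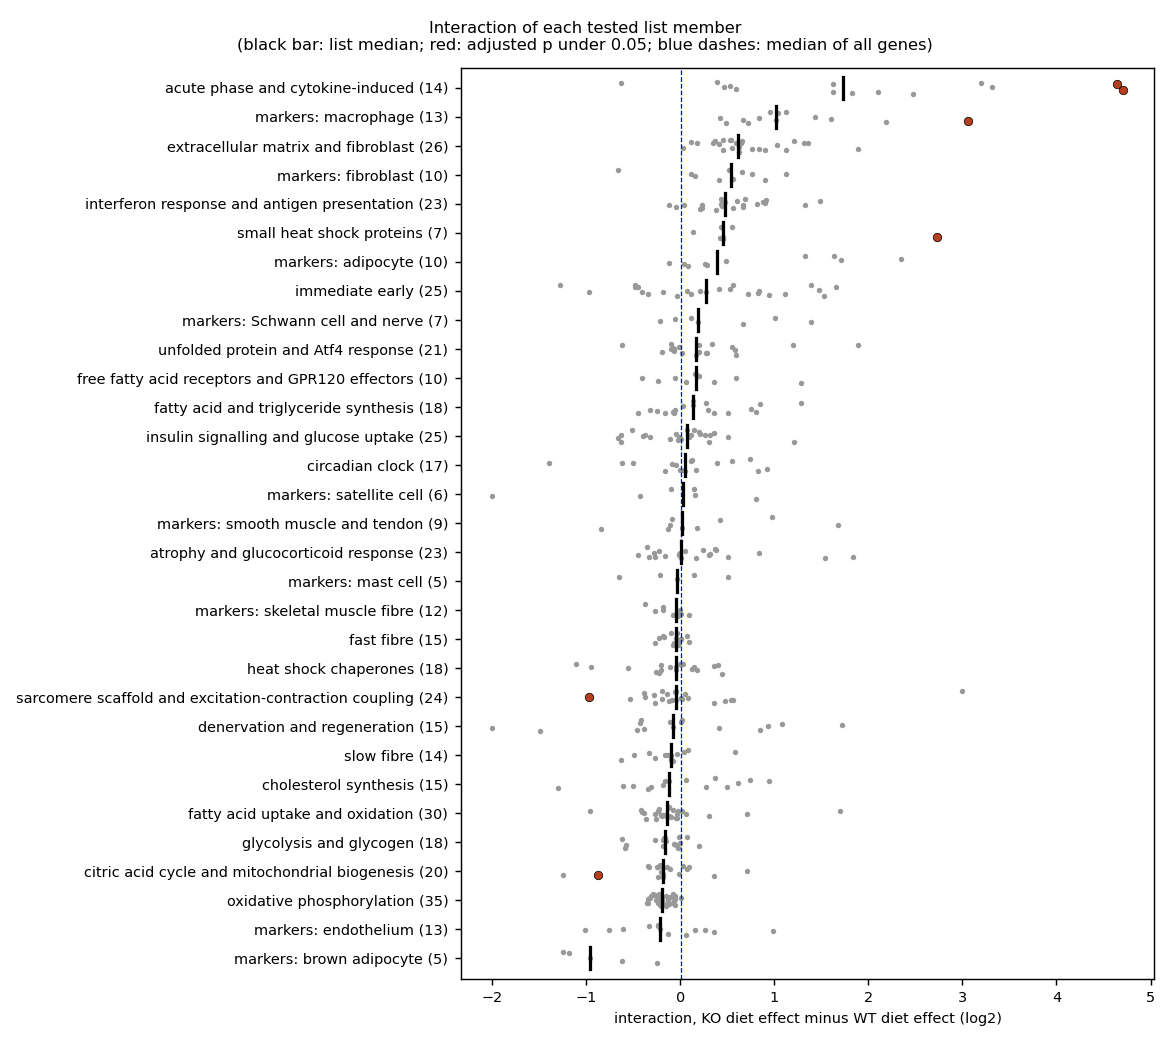
Interaction (log2) of each tested member of each gene list, with the list on the vertical axis and its number of tested members in parentheses; the black bar is the list median, red points passed an adjusted p of 0.05, and the blue dashes mark the median of all genes, 0.01. The acute phase list, with Ubd counted, has the highest median, 1.73, and oxidative phosphorylation members lie in a narrow band with a median of −0.20.

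Most mitochondrial genes had interactions below 0, small in size. Of 35 tested oxidative phosphorylation subunits 1 had an interaction above 0, and the median was −0.20 (−0.24 to −0.15 when 1 mouse was left out). It was −0.12 under quantile normalization and −0.28 under median centring. None passed in limma, and 11 were lower at an unadjusted p under 0.05 (4.87% of all genes). Within WT mice 8 of 35 rose with the diet (3.07% of all genes), and within KO mice 0 did (2.66%). Ndufs3, a subunit of complex I, averaged 11.99 in WT ND, 12.32 in WT HFD, 12.19 in KO ND and 12.19 in KO HFD. Its interaction was −0.35 (SE 0.11, adjusted p = 0.298). Ndufa2, another subunit of complex I, stood at −0.36 (SE 0.11, adjusted p = 0.298). Averaged over the list as centred values, the WT ND mice lay at −0.12 to −0.07 and the WT HFD mice at 0.05 to 0.20. The KO ND mice lay at −0.10 to 0.03, partly inside the WT ND range, and the KO HFD mice at −0.02 to 0.05.

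Of 20 genes of the citric acid cycle and of mitochondrial biogenesis 1 passed, Idh2 (0.141% of all genes). Their median was −0.19, and 5 of 20 were above 0. At an unadjusted limma p under 0.05, 1 was higher and 6 were lower (5.52% and 4.87% of all genes). Ppargc1a, the coactivator that drives mitochondrial biogenesis, read 7.12, 7.04 and 7.52 in WT ND and 8.09, 8.41 and 7.78 in WT HFD. It read 7.60, 7.92 and 7.67 in KO ND and 6.92, 7.35 and 7.78 in KO HFD. The WT HFD mice were above the WT ND mice without overlap, while the KO groups overlapped. Its interaction was −1.25 (SE 0.31, adjusted p = 0.197). Fatty acid uptake and oxidation genes had a median of −0.14, with 5 of 30 above 0 and 0 past the threshold (median −0.22 under median centring or without WT HFD mouse 1). At an unadjusted limma p under 0.05, 2 were higher and 5 lower (5.52% and 4.87% of all genes). The diet raised 17 of the 30 in WT (3.07% of all genes) and 11 in KO (2.66%). In 11 of 30 the WT ND mice lay below all others (2.99% of all genes). Plin2, which coats lipid droplets, was 1 of the 5 above 0, at 1.70 (SE 0.37, adjusted p = 0.112): it averaged 9.06 in KO HFD and 7.63 to 8.28 in the other groups. Acot2, a mitochondrial acyl-CoA thioesterase, stood at −0.96 (SE 0.22, adjusted p = 0.147). Glycolysis and glycogen genes had a median of −0.16 and 0 of 18 past the threshold, with 2 lower at an unadjusted limma p under 0.05 (4.87% of all genes). That median was −0.08 under quantile normalization, with 7 of 18 above 0, and −0.08 without KO ND mouse 2. Ldhb, the lactate dehydrogenase subunit of oxidative tissue, stood at −0.62 (SE 0.15, adjusted p = 0.147).

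**Figure D5:**
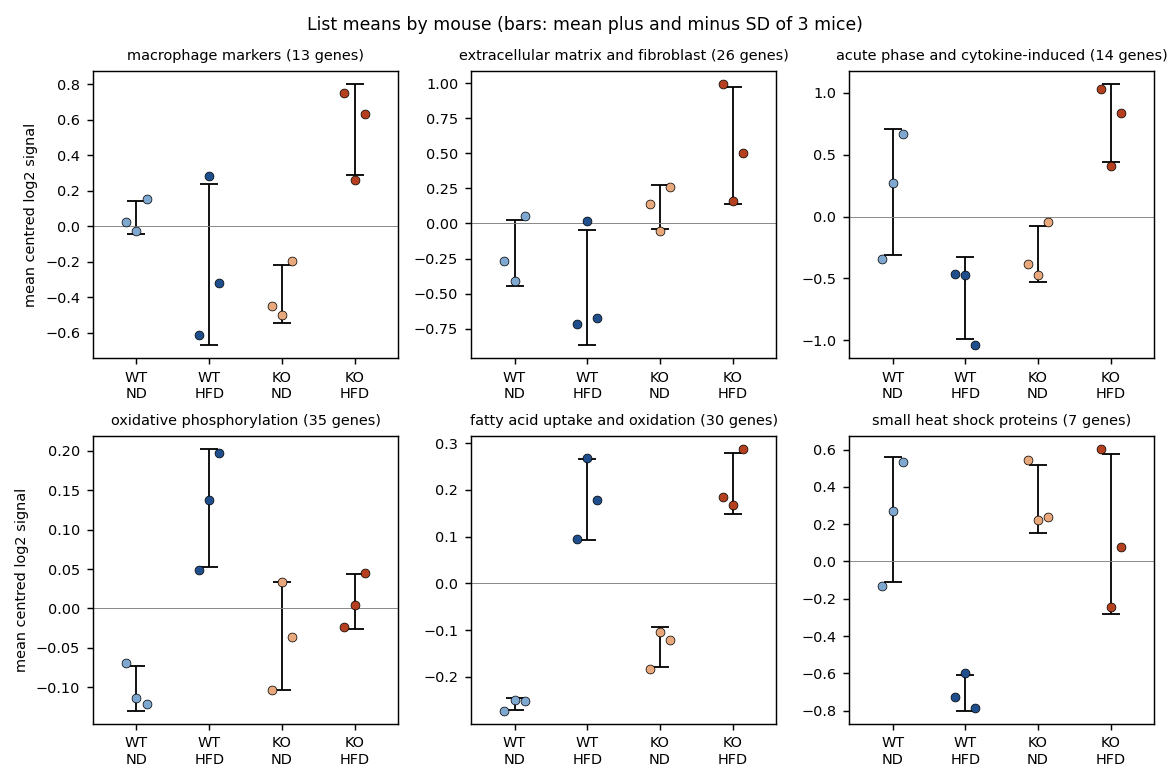
Mean centred log2 signal of 6 gene lists in each mouse, 1 panel per list, with the 4 groups on the horizontal axis and bars of the mean plus and minus 1 SD of 3 mice. In the macrophage panel WT HFD mouse 2 lies at 0.28, inside the KO HFD range of 0.26 to 0.75; in the fatty acid panel both high fat groups lie above both normal diet groups.

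Atrophy and glucocorticoid response genes fell with the diet in 15 of 23 cases in WT (2.99% of all genes) and 10 of 23 in KO (1.88%). Their median interaction was 0.01, its sign changed between alternatives, and 0 passed in limma. At an unadjusted p under 0.05, 2 were higher and 1 lower (5.52% and 4.87% of all genes). Mt2, a metal-binding metallothionein, stood at 1.84 with an SE of 0.78 (adjusted p = 0.434). Immediate early genes fell in 12 of 25 cases in WT (2.99% of all genes) and 6 of 25 in KO (1.88%). Their median interaction was 0.28, with 16 of 25 above 0 and 0 past the threshold in limma. At an unadjusted p under 0.05, 4 were higher (5.52% of all genes). The median ranged from 0.15 without KO HFD mouse 1 to 0.60 without KO HFD mouse 2. Egr1, an early growth response transcription factor, read 7.43, 8.42 and 8.46 in WT HFD, 9.58 to 10.46 in WT ND, 9.91 to 10.24 in KO ND and 10.08, 8.93 and 10.24 in KO HFD. The WT HFD mice were below all others, and the interaction was 1.66 (SE 0.47, adjusted p = 0.256). Heat shock chaperones had a median of −0.05, whose sign changed between alternatives. Of the 18, 0 passed in limma or at an unadjusted p under 0.05 (0.141% and 10.4% of all genes). Hspa1b, an inducible Hsp70, had wide error, at −1.11 (SE 0.65, 95% confidence interval −2.51 to 0.29).

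Contractile genes had interactions near 0. Fast fibre genes had a median of −0.04, whose sign changed between alternatives, slow fibre genes −0.10 (−0.20 without KO HFD mouse 1 and −0.01 without KO HFD mouse 2) and sarcomere scaffold and excitation-contraction coupling genes −0.05, whose sign also changed between alternatives. Of their 15, 14 and 24 tested members, Capn3 was the only one past the threshold. Without adjustment, a limma p under 0.05 was reached by 0 fast, 3 slow and 5 sarcomere genes (10.4% of all genes). Ankrd1, a stretch-responsive repeat protein, had the largest interaction of the sarcomere list at 2.99, with an SE of 1.10 and an adjusted p of 0.368. It read 6.38, 9.50 and 6.12 in WT HFD and 12.18, 9.54 and 10.39 in KO HFD. WT HFD mouse 2 and KO HFD mouse 2 were level, and WT ND and KO ND mice lay at 10.86 to 12.37.

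Fatty acid receptors and GPR120 effectors did not pass. Of 10 tested members 0 passed in limma, and 0 had an unadjusted p under 0.05 (10.4% of all genes). The median interaction was 0.16 (0.06 without KO HFD mouse 1 and 0.27 without KO HFD mouse 2). Ffar2, a receptor for short-chain fatty acids, had the largest value at 1.28 (SE 0.78, adjusted p = 0.592). It averaged 4.03 in WT ND, 4.83 in WT HFD, 3.77 in KO ND and 5.84 in KO HFD. Its second probe set read 4.02, 3.08 and 3.10 in WT ND, 4.64, 4.75 and 3.65 in WT HFD, 4.30, 4.68 and 4.66 in KO ND, and 5.26, 5.40 and 5.06 in KO HFD, where the KO HFD mice were again highest. From its group means the interaction was −0.25, the opposite sign to the first probe set. Plcb1, a phospholipase C that Gq proteins activate, stood at 0.59 (SE 0.30, adjusted p = 0.511).

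The remaining lists had 0 members past the threshold in limma. Their leading members were Psat1, an enzyme of serine synthesis in the Atf4 response list, at 1.88 (SE 0.42, adjusted p = 0.129), and Pax7, the satellite cell factor, at −2.0 (SE 0.68, adjusted p = 0.344). Pax7 read 1.38 to 3.35 in WT ND and 4.35 to 5.08 in the other mice. Its WT ND mean of 2.68 was below the filter of 3.78, so the size of the interaction rests on dim signals. Nfil3, a clock-linked repressor, stood at −1.39 (SE 0.35, adjusted p = 0.203), Pik3cb, a catalytic subunit of PI3-kinase, at 1.21 (SE 0.34, adjusted p = 0.253), and Agpat2, an enzyme of triglyceride synthesis, at 1.29 (SE 0.50, adjusted p = 0.392). At an unadjusted p under 0.05 the counts were 3 of 21 in the Atf4 and unfolded protein list, 4 of 15 in denervation, 2 of 17 in the clock, 4 of 25 in insulin signalling and 2 of 18 in triglyceride synthesis. Over all genes the share was 10.4%.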

How the data were processed

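Muscle RNA of 12 mice, 3 in each of 4 groups, was measured on 12 Affymetrix arrays. The authors deposited log2 signals. The submitters' processing notes name MAS5, without a version. The values were used as deposited.

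Of 45037 probe sets without controls, 22518 had a mean log2 signal above the median of 3.78. The brightest probe set of each single-symbol gene was kept, which gave 11345 genes. Group means were fitted in limma 3.58.1 (R 4.3.3) with an intensity trend, and p-values were adjusted by Benjamini-Hochberg over all genes at 0.05. The interaction is a difference of log2 differences with its SE. The pipeline was tested on simulated data.

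The interaction, the gene lists and the genes of interest were chosen with earlier results of these data known. Named genes are those past the threshold, list members past it or at most 2 with the largest interaction per list, and neighbours; others are marked. Replicate numbers follow the order of the samples and pair nothing. Alternatives were other offsets, filters, normalizations, probe set rules and variance models, a covariate for the ratio of 3′ to 5′ control probes, and each mouse left out.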

Additional observations from a re-analysis of the deposited data

Results flagged for a closer look

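For 16 genes the diet effect in KO mice differed from that in WT mice by the test of the interaction in limma, at an adjusted p of 0.000836 to 0.0484. It was higher in KO mice for Tmem87a (2.92), Ctss (2.03), Hspb7 (2.73), Lgals3 (3.06), Gpnmb (2.15), Hp (4.71), Net1 (1.59), Vamp7 (0.79) and Ubd (4.64). It was lower in KO mice for Capn3 (−0.97), Neat1 (−0.95), A930005H10Rik (−1.01), Me3 (−0.97), Oip5os1 (−0.7), Idh2 (−0.88) and Mpp3 (−1.51). All values are log2 differences between the diet effects.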

How the results depend on the processing

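The 16 calls became 10 under quantile normalization, 7 under median centring (85.7% higher), 6 with all probe sets (83.3% higher) and 1 without the intensity trend. When 1 mouse was left out they ranged from 4, without WT ND mouse 2 or KO ND mouse 1, to 31, without WT HFD mouse 2. The calls set apart in WT ND (6) became 2 under quantile normalization, median centring or all probe sets and 1 without the trend, and ranged from 2 to 8 when 1 mouse was left out. Those in WT HFD (2) became 1 without a filter, with a 75th percentile filter, under quantile normalization, median centring or all probe sets and 0 without the trend, with a range of 1 to 4. Those in KO ND (2) became 4 with the 75th percentile filter or array weights and 0 under median centring, all probe sets, no trend or the 3′ over 5′ covariate, with a range of 0 to 4. Those in KO HFD (6) became 3 with all probe sets and 0 without the trend, with a range of 1 to 17. The cause was not tested. Of 349 combinations of called gene and alternative, 156 lost the call and 0 changed sign. Other filters, all probe sets and no trend kept the interaction value itself, so a sign could not change there. The median interaction of all genes moved from 0.01 to −0.07 under median centring. No paired analysis was possible because the mouse numbers of the groups do not match.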

Other observations

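Beyond the 16 genes, 36 others passed in at least 1 of 22 alternatives, 3 of them in 3 or more, all chosen after their values were seen. Cstb, which encodes cystatin B, an inhibitor of lysosomal cathepsins, averaged 9.73 in WT ND, 9.51 in WT HFD, 9.57 in KO ND and 10.23 in KO HFD. Its interaction was 0.88 (SE 0.16, adjusted p = 0.0541 in limma), and it passed in 5 alternatives. Ifi30, a thiol reductase of lysosomes that helps unfold antigens, averaged 7.89, 7.37, 7.11 and 7.69 in the same order. Its interaction was 1.10 (SE 0.20, adjusted p = 0.05), and it passed in 4. Luc7l3, a splicing-related protein, averaged 9.45, 9.76, 9.94 and 9.54, with an interaction of −0.71 (SE 0.13, adjusted p = 0.0541), and passed in 3.

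Brown adipocyte markers had a median interaction of −0.96, with 0 of 5 above 0 and 0 past the threshold in limma. At an unadjusted p under 0.05, 2 were lower (4.87% of all genes). Dio2, which activates thyroid hormone, stood at −1.19 (adjusted p = 0.56). The median was −0.61 with an offset at the median signal added before the logarithm.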
